A study of Mus musculus with 33 samples.

Results

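Oncofetal genes are expressed in the fetal liver, silenced around birth and often expressed again in liver cancer. Values are given here for 9 of them, chosen by symbol from the 21671 genes of the deposited table: Afp, Gpc3, Igf2bp1, Igf2bp2, Igf2bp3, Lin28b, Hmga1, Hmga2 and Sox4. All 9 symbols were found. Total RNA was sequenced from 33 livers and liver nodules of C57BL/6 mice, in a series on the joint action of MYC and β-catenin in the liver. In the short-term arm all mice, wild type included, received AAV8-TBG-CRE at 6 to 8 weeks of age and were killed on day 4. TBG is a hepatocyte promoter, so this virus brings Cre recombinase to hepatocytes. The 4 genotypes, with 5 livers each, were WT, beta-cat Ex3 (a β-catenin allele that Cre turns into a stable form, here Ex3), R26-lslMYC (a MYC transgene that Cre switches on, here MYC) and R26-lslMYC/beta-cat Ex3 (MYC+Ex3). The tumour arm holds 3 liver nodules with the genotype Albeta-CreERT2/R26-lslMYC (MYC tumours), 3 with Albeta-CreERT2/R26-lslMYC/beta-catEx3 (MYC+Ex3 tumours) and 7 WT livers taken 4 days after 4-OHT (4-hydroxytamoxifen, the drug that activates CreERT2). The albumin promoter restricts that Cre to cells of the hepatocyte lineage. The labels give no age or treatment for the mice with nodules, and they do not say whether nodules of a group came from separate animals. If some shared an animal, they are not independent, the spread between animals is understated and the p-values of the tumour arm are too small.

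AFP is the main serum protein of the fetal liver, and its gene lies beside that of albumin. GPC3 is a glypican, a heparan sulphate proteoglycan held at the cell surface by a lipid anchor, and like AFP it serves as a marker of hepatocellular carcinoma. LIN28B is an RNA-binding protein that blocks the maturation of the let-7 microRNAs. Those microRNAs repress, among others, Lin28b itself, Hmga2 and the Igf2bp genes, whose proteins bind and stabilise mRNAs. HMGA1 and HMGA2 are chromatin proteins that bind AT-rich DNA, and SOX4 is a transcription factor of progenitor cells.

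The let-7 link can be read from sequence. The RefSeq table of mature microRNAs (GRCm38.p6) held 11 sequences of the let-7 and miR-98 family, and 10 of them shared the seed GAGGUAG, which is base 2 to 8 counted from the 5′ end. The following 3 members of the family are shown with the seed in capitals.
mmu-let-7a-5p: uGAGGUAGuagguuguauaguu
mmu-let-7g-5p: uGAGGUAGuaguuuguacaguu
mmu-miR-98-5p: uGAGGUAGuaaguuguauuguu
The complement of this seed, CTACCTC, was searched on the sense strand of the 3′ UTR of the longest coding transcript of each gene (GENCODE M21, GRCm38). Of 20945 genes with a 3′ UTR 8.86% held at least 1 match and 0.153% held at least 3. Lin28b, Igf2bp1 and Hmga2 held 4 matches each. Igf2bp2, Igf2bp3 and Hmga1 held 1 each, and Afp, Gpc3 and Sox4 held 0. These 3′ UTRs differ in length (6337 bases for Igf2bp1, 4445 for Lin28b, 3014 for Hmga2 and 201 for Afp), and longer ones hold more matches: of the genes whose 3′ UTR was within 1.25 times the length of that of Igf2bp1, 34.3% held at least 1. The first match of each of these 6 genes, in a window of 25 bases, is shown with the match in capitals.
Lin28b: gcgggaagtCTACCTCatgcaagca
Hmga2: attcaatttCTACCTCagcatcagt
Igf2bp1: cgaagtaaaCTACCTCaaggtgtga
Igf2bp2: aaataaaagCTACCTCaggtgtttt
Igf2bp3: tttactcaaCTACCTCaggtattca
Hmga1: gttcacaaaCTACCTCtggacggtt
A match is a description of letters and not a measured site. Mature let-7 was not measured in these libraries: the 12 rows for let-7 and miR-98 precursors held 24 to 86 reads in all per library.

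Of the members, 8 matched the RefSeq promoter table (GRCm38.p6; Igf2bp1 was not matched), and promoters of 3 held a searched motif on either strand. MYC binds the E-box CACGTG, which is present in 7.15% of the 32851 promoters of the table. Lin28b held 1 E-box, starting 49 bases before the gene start, and Igf2bp3 held 2, the first starting 23 bases before the gene start. Afp held GTTAATNAT, one arm of the palindromic site of the hepatocyte factor HNF1, starting 105 bases before the gene start. That motif was found in 0.801% of promoters. The β-catenin partner motifs CTTTGAA and CTTTGAT (5.14% and 3.73% of promoters) and the forkhead motif TGTTTAC (3.65%) were in the promoters of none of the 8. The 3 promoters with a motif are shown from 250 bases before the gene start to 30 bases after it, 5′ to 3′ on the strand of the gene, with the motif in capitals.
Afp, chr5:90490464-90490743, plus strand: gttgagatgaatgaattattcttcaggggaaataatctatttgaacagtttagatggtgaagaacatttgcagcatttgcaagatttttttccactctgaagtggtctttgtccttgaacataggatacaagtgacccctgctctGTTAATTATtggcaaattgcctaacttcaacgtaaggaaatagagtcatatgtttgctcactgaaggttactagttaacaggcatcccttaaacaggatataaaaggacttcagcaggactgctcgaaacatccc
Lin28b, chr10:45470172-45470451, minus strand: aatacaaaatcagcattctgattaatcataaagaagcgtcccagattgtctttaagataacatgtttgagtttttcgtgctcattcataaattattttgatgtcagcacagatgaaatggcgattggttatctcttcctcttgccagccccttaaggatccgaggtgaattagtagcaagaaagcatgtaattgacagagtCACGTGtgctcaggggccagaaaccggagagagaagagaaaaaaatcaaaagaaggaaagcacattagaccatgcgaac
Igf2bp3, chr6:49214925-49215204, minus strand: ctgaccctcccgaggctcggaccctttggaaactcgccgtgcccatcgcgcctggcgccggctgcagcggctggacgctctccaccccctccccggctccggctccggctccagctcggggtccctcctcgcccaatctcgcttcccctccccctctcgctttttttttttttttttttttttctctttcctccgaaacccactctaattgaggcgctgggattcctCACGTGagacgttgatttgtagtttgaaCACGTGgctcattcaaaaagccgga

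The deposited unit is RPKM, which scales reads to the length of the gene and to the total of the library. Reads recovered from the RPKM steps gave 3749019 to 7313994 reads in genes for the short-term livers and 6648579 to 9823986 for the tumour arm. The RPKM scales of the arms differ, so levels are compared within an arm only. All 10 hepatocyte markers were above 0 in every library, with summed levels of 1445 to 2580 RPKM in the short-term arm and 262 to 444 RPKM in the tumour arm. In bulk tissue, fewer cells of a type and less RNA per cell cannot be told apart. The highest number of reads per base of any gene was 1.47 to 1.65 in the short-term livers and 1.61 to 1.81 in the tumour arm, so that the most abundant genes are compressed toward a ceiling. Of the short-term livers 10 had a summed Krt5, Krt14 and Krt17 level above 1 RPKM (3.95 to 23.8), which are epidermal keratins, against at most 0.398 in the other 10. No label names these as a batch. The sets, defined here by that level alone and called keratin-bearing and keratin-free, were spread unevenly over the genotypes, with 3 keratin-bearing livers in each group but the MYC livers, which had 1.

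MYC liver 5 stood apart before any comparison. It held 144 RPKM of 8 neural genes (Elavl2, Elavl4, Sox2, Pou3f2, Tubb3, Stmn2, Nefl and Gap43, a list chosen after the values were seen), against at most 3.78 in the other 19 short-term livers. In the same library Igf2bp1 stood at 3.46 RPKM (194 reads) and Lin28b at 0.873 RPKM (53 reads), while in the other 4 MYC livers Igf2bp1 reached at most 0.0543 and Lin28b at most 0.0630 RPKM. Igf2bp2 (11.6 against at most 2.37), Gpc3 (5.56 against at most 1.14), Hmga2 (6.95 against at most 1.49), Sox4 (13.1 against at most 3.41) and Igf2bp3 (11.2 against at most 5.35) were also highest there. Afp (7.16, others 4.29 to 8.51) and Hmga1 (26.1, others 25.6 to 70.2) lay within the range of the other MYC livers. The part of the neural genes in these levels was not tested. Tests of the MYC livers are given with and without this library for the members that met the filter.

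Differences were tested with limma on log2(RPKM + 1), two-sided, over all genes of an arm whose RPKM reached 1 in at least 3 libraries, and called at a Benjamini-Hochberg adjusted p under 0.05. Changes are therefore on the log2(RPKM + 1) scale, with their standard error (SE), and understate the change of low genes. In the tumour arm 6 members met the filter and Igf2bp1, Igf2bp2 and Hmga2 did not. Gpc3, Lin28b and Sox4 met it through tumour libraries alone, and Igf2bp3 had 1 4-OHT liver of 7 at 1 RPKM, so the share of tested members that were higher in tumours is a description and carries no weight of its own.

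In MYC tumours all 6 tested members were higher than in 4-OHT livers, beside 49.8% of the 11854 genes tested that were called in either direction. The median change of these 6 was 1.95, beside 0.19 for all genes tested. In MYC+Ex3 tumours 5 of the 6 were called, all higher, beside 60.6% of all genes. Their median was 2.50, beside 0.23 for all genes. Rescaling libraries by the median ratio lowered the median of all genes by 0.18 in both comparisons and left these calls as they were, except that Lin28b in MYC tumours was lost. The comparisons share the 7 4-OHT livers. Of all genes tested 4286 were higher and 1621 lower in MYC tumours, and 5011 were higher and 2178 lower in MYC+Ex3 tumours, and the counts of the gene lists below are to be read beside these shares.

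**Figure D1:**
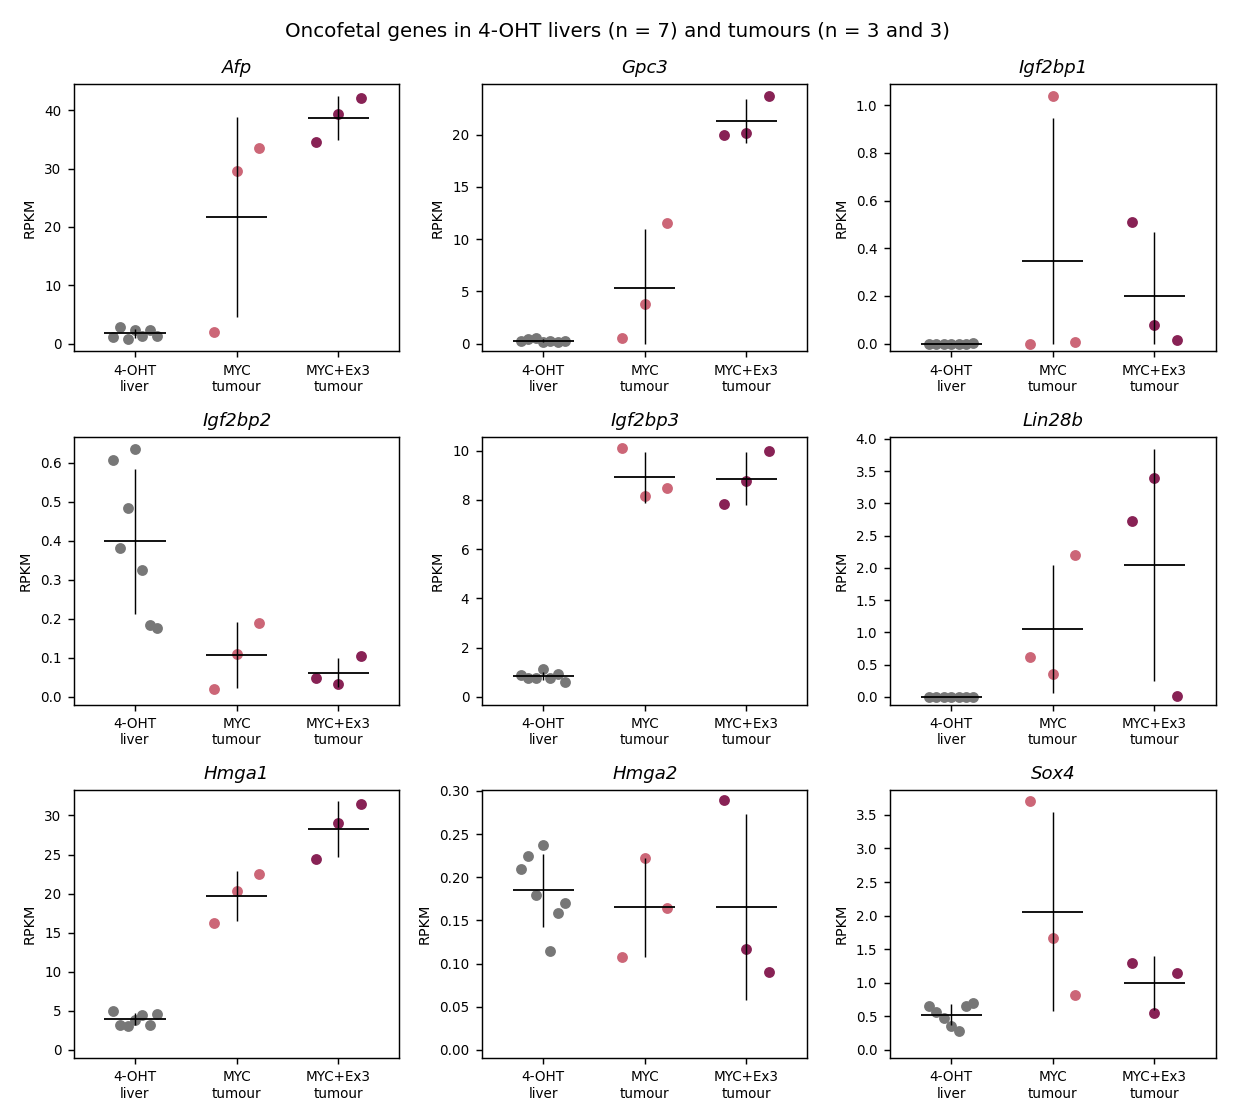
RPKM of the 9 genes in 7 4-OHT livers, 3 MYC tumours and 3 MYC+Ex3 tumours, 1 point per library, each panel on its own linear axis. Horizontal lines are group means and vertical lines 1 SD, stopped at 0. Igf2bp3 and Hmga1 are separated from the livers in all 6 tumours, while 1 MYC tumour stays inside the Afp range of the 7 livers, sexes pooled.

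Afp stood at 0.864 to 2.88 RPKM in the 4-OHT livers (median 1.39). The MYC tumours held 1.97, 29.6 and 33.5 RPKM, and the MYC+Ex3 tumours 34.5, 39.3 and 42.1 RPKM. Of the 6 tumours 5 lay far above every liver, and MYC tumour 1 lay inside the range of the livers of both sexes together. By Xist and Ddx3y the MYC tumours were all male, and MYC+Ex3 tumour 3, with the highest Afp, was the only female tumour. The Afp of MYC tumour 1 lay above the male 4-OHT livers (0.864 to 1.39 RPKM) and below the female ones (2.27 to 2.88 RPKM). Sex was thus spread unevenly over the groups of this arm. The change was 2.46 (SE 0.55) in MYC tumours (limma, adjusted p = 0.00227) and 3.89 (SE 0.55) in MYC+Ex3 tumours (adjusted p = 3.74e-05). Without MYC tumour 1 the first became 3.61 (adjusted p = 8.97e-08). Every MYC+Ex3 tumour was above every MYC tumour, but that difference of 1.43 (SE 0.65) did not pass (adjusted p = 0.268) and was 0.28 without MYC tumour 1. The MYC+Ex3 tumours had Afp at 71.2% to 76.1% of the highest RPKM of the same library, toward the ceiling of the measure. The part of that ceiling in the differences among them was not tested.

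Of Alb, Afm and Gc, the other genes of the albumin cluster, 1 was lower in MYC tumours and 2 in MYC+Ex3 tumours, and 0 were higher in either. Alb stood at 84.7% to 95.4% of the highest RPKM of the library in the 4-OHT livers and Gc at 67.6% to 73.3%, so a rise of Alb in particular could not have been measured. Afm, the vitamin E-binding protein afamin, fell by 1.13 (SE 0.22) in MYC tumours (limma, adjusted p = 0.000745) and by 1.22 in MYC+Ex3 tumours (adjusted p = 0.000231). Among 15 tested regulators of Afp on the list, 1 was higher and 5 were lower in MYC tumours, and 1 was higher and 8 were lower in MYC+Ex3 tumours. The median change of the list was -0.27 and -0.35, beside 0.19 and 0.23 for all genes. The 1 that was higher in MYC tumours was Trp53, the gene of p53, a repressor of Afp, with a change of 1.13 (SE 0.14, limma adjusted p = 2.74e-05). Zhx2 and Zbtb20 are repressors that silence Afp after birth.

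Zhx2 stood at 2.94 to 5.02 RPKM in the 4-OHT livers. It was at 3.15 RPKM in MYC tumour 1, the tumour with Afp inside the pooled range of the livers, and at 1.37 and 0.873 in MYC tumours 2 and 3. The MYC+Ex3 tumours held 1.23, 0.773 and 0.763 RPKM, so the 5 tumours with high Afp were all below every liver. Zbtb20 showed the same split, with 7.11 RPKM in MYC tumour 1 inside the liver range of 5.54 to 9.19, and 1.96 to 3.96 in the other 5 tumours. Zhx2 fell by 0.88 (SE 0.20) in MYC tumours (limma, adjusted p = 0.00207) and by 1.35 (SE 0.20) in MYC+Ex3 tumours (adjusted p = 4.51e-05). That these levels move with Afp over 6 tumours is a description chosen after the values were seen, and their part in the level of Afp was not tested.

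Gpc3 lay at 0.156 to 0.529 RPKM in the 4-OHT livers (median 0.271). The MYC tumours held 0.571, 3.80 and 11.6 RPKM and the MYC+Ex3 tumours 20.0, 20.2 and 23.7 RPKM. The 3 groups did not overlap, and MYC tumour 1 was again the lowest tumour. In the MYC+Ex3 tumours Gpc3 stood at 36.5% to 43.5% of the highest RPKM of the library. The change was 1.82 (SE 0.40) in MYC tumours (limma, adjusted p = 0.00205) and 4.10 (SE 0.40) in MYC+Ex3 tumours (adjusted p = 1.68e-06). Without MYC tumour 3 the first became 1.09 (adjusted p = 0.00806). It was 3.04 with a pseudocount of 0.1 and 3.52 by voom on the recovered reads, both called. Gpc3 was the 1 member of 6 called between the tumour genotypes, where 4.13% of all genes were called, with a difference of 2.28 (SE 0.48, adjusted p = 0.0140). That difference was 1.52 without MYC tumour 1 (adjusted p = 0.00498) and 3.02 without MYC tumour 3 (adjusted p = 8.42e-05). It was lost when MYC+Ex3 tumour 1 or 3 was left out (adjusted p = 0.0513 and 0.0710) and when the tumours were fitted without the 4-OHT livers (adjusted p = 0.231). In the authors' deposited table the same comparison has a log2 fold change of 1.15 and an adjusted p of 0.118, which is no call.

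Most of the other heparan sulphate genes that were called were lower. Of 9 tested genes for proteoglycan cores and enzymes, 0 were higher and 6 lower in MYC tumours, and 1 was higher (Notum, 0.79, SE 0.21, limma adjusted p = 0.0045) and 6 lower in MYC+Ex3 tumours. The median change of the list was -0.59 and -0.68. Gpc1, another glypican, fell by 1.46 (SE 0.24) in MYC tumours (limma, adjusted p = 0.000241) and by 1.19 (SE 0.24) in MYC+Ex3 tumours (adjusted p = 0.00068). Notum, a secreted enzyme that acts at glypicans on Wnt proteins and is a β-catenin target, stood at 8.08 to 11.8 RPKM in the 4-OHT livers, 0.494, 1.90 and 0.243 in the MYC tumours and 17.6, 14.2 and 19.1 in the MYC+Ex3 tumours. It was 3.35 (SE 0.24) higher in MYC+Ex3 than in MYC tumours (limma, adjusted p = 1.34e-06). Notum and Gpc3 were thus both higher with the Ex3 allele, while in the MYC tumours they differed from the livers in opposite directions.

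Lin28b was almost silent in the 4-OHT livers, with 0 reads in 5 of them and 1 read in each of the other 2. A count of 0 allows up to 3 reads, which is 0.00852 to 0.0139 RPKM in this arm. The MYC tumours held 0.610, 0.352 and 2.19 RPKM (132, 124 and 734 reads). The MYC+Ex3 tumours held 2.73, 3.40 and 0.0107 RPKM (899, 920 and 3 reads). In 5 of 6 tumours Lin28b was thus well above the floor, and MYC+Ex3 tumour 3, which had the highest Afp and Gpc3, was at the floor. The change in MYC+Ex3 tumours was 1.35 (SE 0.36, limma adjusted p = 0.00472) and became 2.02 without MYC+Ex3 tumour 3. In MYC tumours it was 0.93 (SE 0.36, adjusted p = 0.0425), a call lost in 12 of 16 alternatives (adjusted p up to 0.169), each 4-OHT liver left out included. In the authors' deposited table the log2 fold changes are 6.81 (adjusted p = 4.72e-29) and 7.71 (adjusted p = 6.11e-21). These are on another scale: with a pseudocount of 0.1 the changes were 3.16 and 3.35, and by voom on the recovered reads 8.31 and 7.43, all called.

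**Figure D2:**
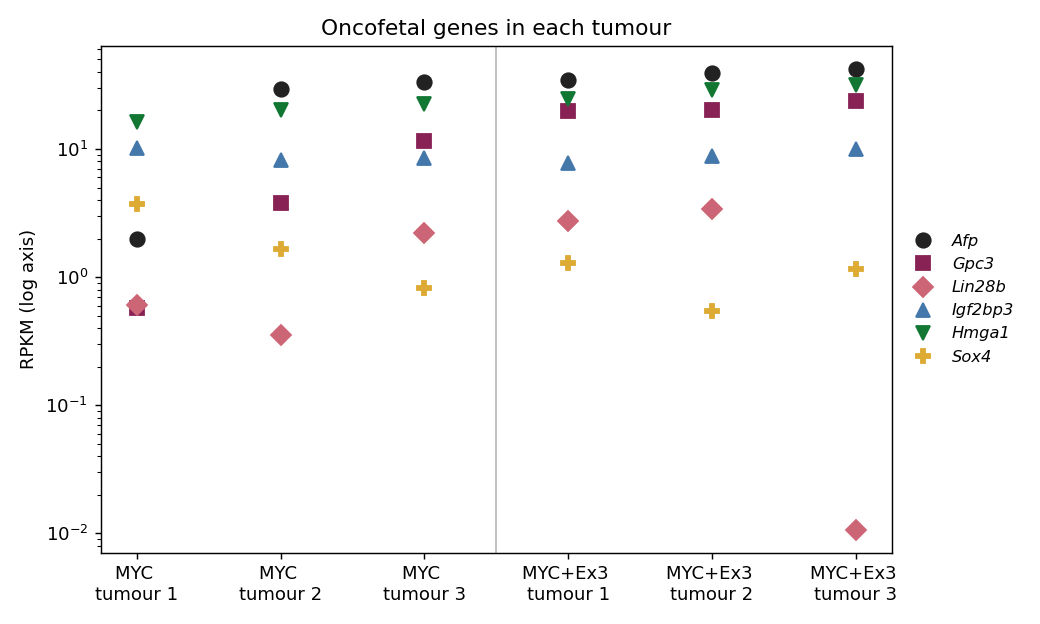
RPKM of 6 oncofetal genes in each of the 3 MYC tumours and 3 MYC+Ex3 tumours on a log axis, 1 symbol per gene. Igf2bp3 and Hmga1 vary little, Afp and Gpc3 are low in MYC tumour 1, and Lin28b drops to 0.0107 in MYC+Ex3 tumour 3.

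The 3 Igf2bp genes behaved differently from one another in tumours. Igf2bp3 stood at 0.593 to 1.14 RPKM in the 4-OHT livers (median 0.783), at 10.1, 8.17 and 8.49 in the MYC tumours and at 7.83, 8.75 and 9.99 in the MYC+Ex3 tumours. It was the most even of the members, with no overlap between livers and tumours and with MYC tumour 1 as high as the rest. Its change was 2.43 (SE 0.11) in both MYC tumours (limma, adjusted p = 6.62e-09) and MYC+Ex3 tumours (adjusted p = 3.16e-09), and the tumour genotypes differed by -0.01 (95% confidence interval -0.29 to 0.27).

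Igf2bp1 had 1 read in the 7 4-OHT livers together. The MYC tumours held 0, 1.04 and 0.00646 RPKM (0, 338 and 2 reads) and the MYC+Ex3 tumours 0.509, 0.0799 and 0.0155 RPKM (155, 20 and 4 reads). A clear level was thus found in 1 tumour of each genotype. As it did not meet the filter, the difference in mean RPKM was tested by an exact permutation test, two-sided, with 19 such tests made over low members and comparisons and p not adjusted. The p was 0.0167 in MYC+Ex3 tumours, the smallest that 3 against 7 libraries can give, and 0.133 in MYC tumours. In the authors' deposited table the log2 fold change is 5.41 in MYC+Ex3 tumours (adjusted p = 5.67e-10). In MYC tumours it is 1.11, with no adjusted p.

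Igf2bp2 went the other way. It stood at 0.176 to 0.636 RPKM in the 4-OHT livers (median 0.382), at 0.0209, 0.109 and 0.189 in the MYC tumours and at 0.0481, 0.0334 and 0.105 in the MYC+Ex3 tumours. All MYC+Ex3 tumours were below every liver (exact permutation p = 0.0167), and MYC tumour 3 overlapped the lowest livers (exact permutation p = 0.05). The 2 lowest livers, 0.183 and 0.176, belong to the S15 set of the 4-OHT livers. In the authors' deposited table both comparisons are lower, with log2 fold changes of -1.79 (adjusted p = 0.000667) and -2.70 (adjusted p = 2.39e-08).

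Hmga1 was the only member called in both arms for MYC without the Ex3 allele. In the tumour arm it stood at 3.03 to 5.01 RPKM in the 4-OHT livers (median 3.86), at 16.2, 20.3 and 22.6 in the MYC tumours and at 24.4, 29.0 and 31.4 in the MYC+Ex3 tumours. The 3 groups did not overlap. The change was 2.08 (SE 0.15) in MYC tumours (limma, adjusted p = 3.41e-07) and 2.58 (SE 0.15) in MYC+Ex3 tumours (adjusted p = 1.96e-08). Hmga1 stood at 5.41% to 10.5% of the highest RPKM of the library in the 4-OHT livers. It reached 24.0% to 49.8% in the MYC tumours and 52.5% to 56.8% in the MYC+Ex3 tumours. The part of the ceiling in the size of the differences between these groups was not tested. The tumour genotypes differed by 0.51 (SE 0.18), which did not pass (adjusted p = 0.137). Hmga2, its relative, was at 0.115 to 0.237 RPKM in the 4-OHT livers, 0.108 to 0.223 in the MYC tumours and 0.0909 to 0.290 in the MYC+Ex3 tumours. These ranges overlap (exact permutation p = 0.483 and 0.683).

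Sox4 stood at 0.286 to 0.698 RPKM in the 4-OHT livers (median 0.567), at 3.70, 1.67 and 0.816 in the MYC tumours and at 1.30, 0.544 and 1.15 in the MYC+Ex3 tumours. All MYC tumours were above every liver, and the highest was MYC tumour 1, the one with the lowest Afp and Gpc3. The change was 0.90 (SE 0.22) in MYC tumours (limma, adjusted p = 0.00454) and 0.53 without MYC tumour 1 (adjusted p = 0.0219). It was 1.59 with a pseudocount of 0.1 and 1.51 by voom. In MYC+Ex3 tumours it was 0.37 (SE 0.22) and did not pass (adjusted p = 0.163). The tumour genotypes differed by -0.53 (SE 0.27, adjusted p = 0.328), by -0.16 without MYC tumour 1 and by -0.85 without MYC tumour 3 (adjusted p = 0.0457). Sox12, of the same family, rose by 1.47 (SE 0.18) in MYC tumours (limma, adjusted p = 2.81e-05) and by 1.43 (SE 0.18) in MYC+Ex3 tumours (adjusted p = 1.46e-05).

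**Figure D3:**
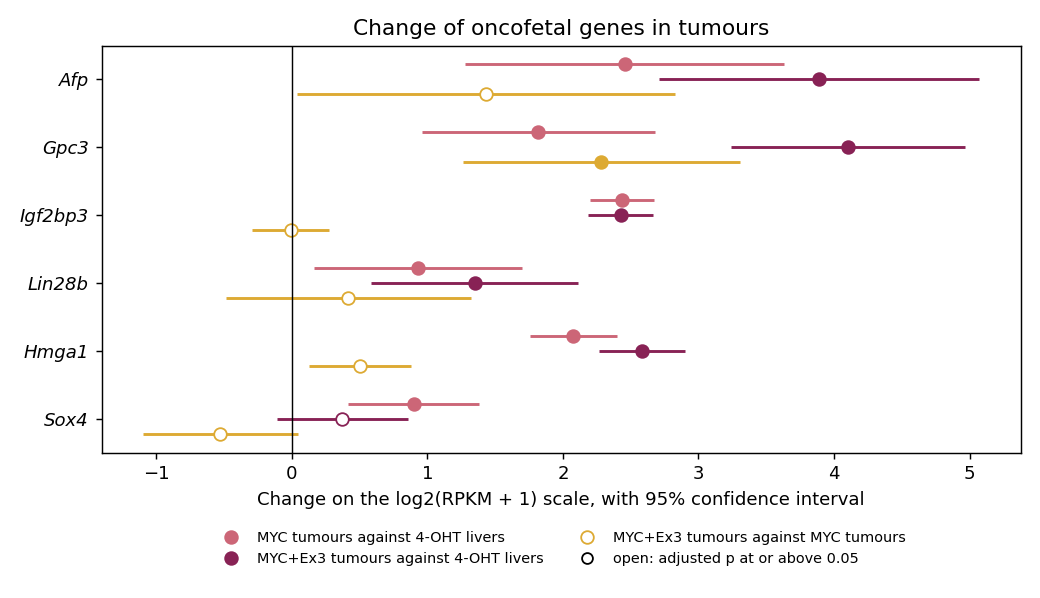
Change of the 6 tested members on the log2(RPKM + 1) scale with 95% confidence intervals from limma, for each tumour genotype against 4-OHT livers and for the genotypes against each other. Filled points passed an adjusted p of 0.05; between the genotypes only Gpc3, at 2.28, did.

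The other genes of the let-7 pathway and of the fetal liver give the setting of these members. Some of them, such as Trim71, Igdcc4, Igf2 and Peg10, were below 1 RPKM in every 4-OHT liver. They met the filter through tumour libraries alone, so the counts and medians of these lists are descriptions and carry no weight of their own. Of 13 tested genes of let-7 processing, 7 were higher and 1 lower in MYC tumours, and 10 higher and 2 lower in MYC+Ex3 tumours. The share called in MYC tumours was near that of all genes (49.8%), and the median changes were 0.74 and 0.98, beside 0.19 and 0.23. Drosha, which cuts the primary microRNA, rose by 1.21 (SE 0.10) in MYC tumours (limma, adjusted p = 9.45e-07). Trim71, itself a let-7 target and an RNA-binding ubiquitin ligase of early development, stood at 0.00502 to 0.0163 RPKM in the livers, at 0.0323, 3.54 and 0.986 in the MYC tumours and at 4.18, 4.77 and 5.30 in the MYC+Ex3 tumours. It was thus near the liver level in MYC tumour 1 only. Trim71 was 1.45 (SE 0.35) higher in MYC+Ex3 than in MYC tumours (limma, adjusted p = 0.0310). Of 12 tested let-7 targets outside the members, 7 were higher and 2 lower in MYC tumours, and 10 higher and 2 lower in MYC+Ex3 tumours (median changes 0.66 and 1.12). Igdcc4, a surface protein of the immunoglobulin family, stood at 0.0193 to 0.0692 RPKM in the livers and at 2.22 to 6.49 in the 6 tumours. Its change was 2.25 (SE 0.17) in MYC tumours (limma, adjusted p = 6.48e-07).

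Of 13 tested fetal liver genes, 9 were higher and 0 lower in MYC tumours, and 9 higher and 1 lower in MYC+Ex3 tumours (median changes 1.74 and 2.93). This too is a description, as Igf2 and Peg10 among others could enter the test only by being high in tumours. Igf2, the fetal growth factor, rose by 5.25 (SE 0.10) in MYC tumours (limma, adjusted p = 6.83e-14), from at most 0.121 RPKM in the livers to 44.6, 35.6 and 39.5 RPKM in the MYC tumours. H19, its imprinted neighbour, rose by 5.19 (SE 0.25, adjusted p = 1.10e-08). In all 6 tumours Igf2 stood at 66.1% to 87.2% and H19 at 95.6% to 100% of the highest RPKM of the library. At that ceiling the size of their changes and the order of their levels across tumours cannot be read. MYC tumour 1 was among the tumours with both genes far above the livers. Peg10, a paternally expressed gene of the placenta, was at 0.253 RPKM in MYC tumour 1 and at 16.9 to 22.1 in the other 5 tumours, against 0.306 to 0.529 in the livers. MYC tumour 1 thus had Igf2, H19, Igf2bp3 and Hmga1 above every liver, and Afp, Gpc3, Trim71 and Peg10 within or near the range of the livers.

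Markers of some other cell types differed between these groups. In MYC tumours 3 of 8 stellate cell and fibroblast markers were called higher and 3 lower. There 0 of 6 erythroid, 0 of 3 tested cholangiocyte and 0 of 3 tested lymphocyte markers were called. In MYC+Ex3 tumours 6 of 6 erythroid markers were called higher, while 2 cholangiocyte and 3 lymphocyte markers were lower. Of the stellate cell and fibroblast markers 1 was higher and 5 were lower there. The summed level of 8 macrophage markers was 109 to 148 RPKM in the 4-OHT livers, 26.7 to 114 in the MYC tumours and 48.6 to 59.7 in the MYC+Ex3 tumours. That of 8 endothelial markers was 50.4 to 83.1, 26.7 to 44.9 and 28.3 to 33.0 RPKM. The 6 erythroid markers in the table summed to 14.01 to 31.8 RPKM in the livers, 11.1, 73.9 and 15.6 in the MYC tumours and 71.1 to 92.4 in the MYC+Ex3 tumours. The 8 proliferation genes were all called higher in both tumour groups, with sums of 27.5 to 52.4 RPKM in the livers and 87.6 to 163 in the tumours. All markers of the 4 lists with summed levels given here were above 0 in every library of the arm. Their part in the levels of the oncofetal genes was not tested.

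In the short-term livers 7 members met the filter and Igf2bp1 and Lin28b did not. The number called was 0 in Ex3 livers against wild type, beside 0.132% of the 13688 genes tested (limma; 0 of the 7 also at an unadjusted p under 0.05, and 0 in the authors' deposited table). It was 1 in MYC livers, beside 22.3% of all genes, 2 in MYC+Ex3 livers, beside 24.1%, and 1 in MYC+Ex3 against Ex3 livers, beside 21.1%. Between MYC+Ex3 and MYC livers 0 were called, beside 0.190% of all genes (limma; Igf2bp2 alone had an unadjusted p under 0.05, at 0.0486, with a difference of -0.71 that became -0.25 without MYC liver 5). Without that library the members that met the filter differed between MYC+Ex3 and MYC livers by -0.25 to 0.68, and 0 were called. For the interaction of the alleles 0 members and 0% of all genes were called (limma; 0 of the 7 members at an unadjusted p under 0.05).

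**Figure D4:**
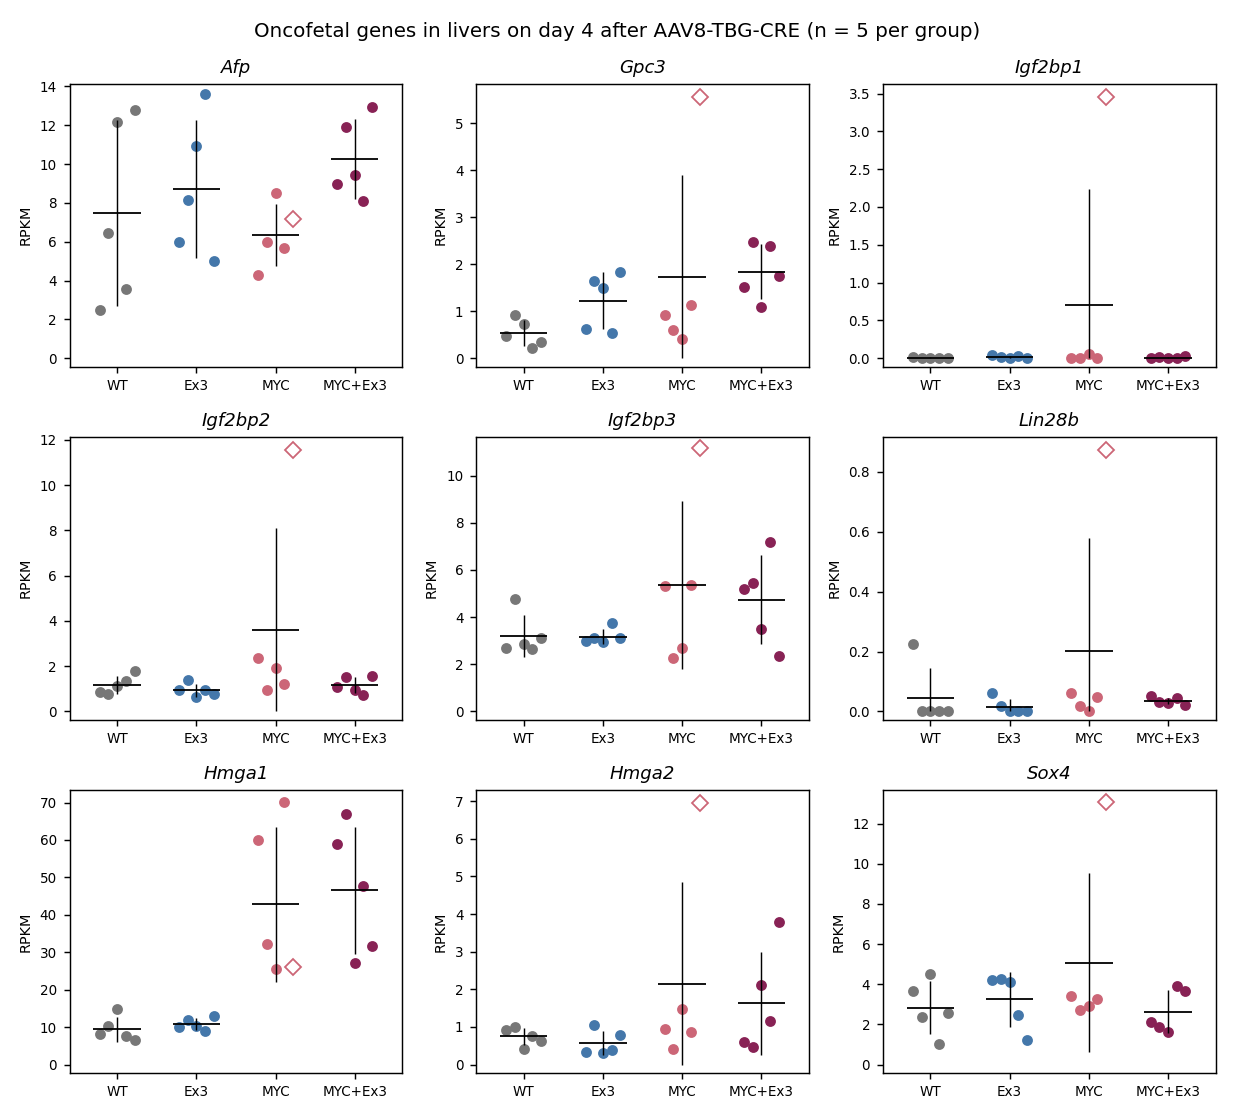
RPKM of the 9 genes in livers on day 4 after AAV8-TBG-CRE, 5 per genotype, 1 point per library, each panel on its own linear axis. Horizontal lines are group means and vertical lines 1 SD, stopped at 0; the open diamond is MYC liver 5, which is the highest library in 7 of the 9 panels.

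Hmga1 was the member with a clear response on day 4. The wild-type livers held 8.17, 10.2, 14.98, 7.54 and 6.47 RPKM and the Ex3 livers 10.2, 11.8, 10.3, 8.89 and 13.1. The MYC livers held 59.9, 32.3, 25.6, 70.2 and 26.1 RPKM, and the MYC+Ex3 livers 59.0, 66.9, 27.2, 47.7 and 31.8. Every liver with the MYC transgene was above every liver without it. Against wild type, limma gave a change of 1.99 (SE 0.29, adjusted p = 4.45e-05) for the MYC livers and of 2.16 (SE 0.29, adjusted p = 1.35e-05) for the MYC+Ex3 livers, and MYC+Ex3 livers were 1.93 (SE 0.29) above Ex3 livers (adjusted p = 6.79e-05). Without MYC liver 5 the first was 2.13 (adjusted p = 3.58e-05). The other members of MYC livers differed from wild type by -0.03 to 0.71 with MYC liver 5 and by -0.08 to 0.25 without it, and 0 of them were called either way. Within the keratin-free livers the change of Hmga1 was 1.52 (adjusted p = 0.0181), while 1 keratin-bearing MYC liver was too few for a value in that set.

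The 8 proliferation genes were also all called higher in MYC and in MYC+Ex3 livers, and their sum was 238 to 520 RPKM in livers with MYC against 58.0 to 73.5 in the wild-type livers. In Ex3 livers, where Hmga1 was not called, 0 of the 8 were called (sum 65.5 to 188 RPKM). Their part in the level of Hmga1 was not tested.

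Gpc3 was low on day 4. The wild-type livers held 0.479, 0.910, 0.729, 0.227 and 0.337 RPKM (3 to 12 reads), and the MYC+Ex3 livers 1.51, 2.47, 1.08, 2.39 and 1.76 (11 to 49 reads). These groups did not overlap. The Ex3 livers held 0.616, 1.64, 1.49, 0.534 and 1.83 RPKM, and the MYC livers 0.912, 0.607, 0.420, 1.14 and 5.56, the last being MYC liver 5. Both overlapped the wild type. The change in MYC+Ex3 livers was 0.88 (SE 0.31, limma adjusted p = 0.0459). It kept its direction but lost its call when any of 8 of the 10 livers was left out (all but wild-type liver 2 and MYC+Ex3 liver 3), in each keratin set (adjusted p = 0.327 and 0.0666) and with no filter (adjusted p = 0.0695). It was 1.67 with a pseudocount of 0.1 and 1.82 by voom, both called. In the authors' deposited table it has a log2 fold change of 1.44 and an adjusted p of 0.000294.

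In the fit without covariates, Afp did not pass in any short-term comparison. The wild-type livers held 2.49, 6.46, 12.2, 3.55 and 12.8 RPKM, the Ex3 livers 5.97, 8.16, 10.9, 13.6 and 4.99, the MYC livers 4.29, 6.00, 8.51, 5.70 and 7.16 and the MYC+Ex3 livers 8.97, 11.9, 9.46, 8.09 and 12.9. The wild-type livers alone spanned the range of nearly all others, and they were split by sex, read from Xist and Ddx3y. Wild-type females (livers 2, 3 and 5) held 6.46 to 12.8 RPKM, and wild-type males (livers 1 and 4) held 2.49 and 3.55. In every genotype each female was above each male. The MYC+Ex3 livers were male but for liver 5, and these males (8.09 to 11.9 RPKM) lay above both wild-type males. The change in MYC+Ex3 livers was 0.60 (SE 0.33, limma adjusted p = 0.193), 0.33 without wild-type liver 1 (adjusted p = 0.467) and 0.93 with sex as a covariate (adjusted p = 0.00488). Afp passed in this comparison only under that 1 of 19 alternatives. It was the only alternative to take account of sex, which was spread unevenly over these groups. The split by sex is a description made after the values were seen, and the part of sex in the level of Afp was not tested.

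Igf2bp3 was at 2.27 to 7.20 RPKM in the 19 livers other than MYC liver 5. The wild-type livers held 2.68, 4.75, 2.84, 2.64 and 3.11 RPKM and the MYC+Ex3 livers 5.20, 5.47, 3.51, 7.20 and 2.34, which overlap. Igf2bp2 was at 0.784 to 1.77 RPKM in wild-type and 0.735 to 1.55 RPKM in MYC+Ex3 livers. Sox4 was at 1.04 to 4.52 RPKM in wild-type, 1.20 to 4.25 in Ex3 and 1.63 to 3.92 in MYC+Ex3 livers. Hmga2 was at 0.424 to 0.997 RPKM in wild-type and 0.316 to 1.04 in Ex3 livers, and at 0.605, 0.479, 2.12, 1.15 and 3.79 in the MYC+Ex3 livers, whose 3 highest are the keratin-bearing ones. Within the keratin-bearing livers Hmga2 was 1.10 higher in MYC+Ex3 than in Ex3 livers (limma, adjusted p = 0.0330), within the keratin-free ones the difference was -0.11, and over both it was 0.62 and did not pass (adjusted p = 0.248; 0.37 without MYC+Ex3 liver 5).

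Lin28b and Igf2bp1 were near or below detection on day 4. Outside MYC liver 5, the highest Lin28b was 0.225 RPKM (11 reads) in wild-type liver 1, and all other livers had 0 to 3 reads. Igf2bp1 had 0 to 2 reads in every liver but MYC liver 5. A count of 0 allows up to 3 reads, which is 0.0452 to 0.0882 RPKM for Lin28b and 0.0489 to 0.0954 RPKM for Igf2bp1 in this arm. A response below those levels was not detectable at this depth. The exact permutation tests of both genes against wild type gave p from 0.286 to 1 in the 3 other genotypes, MYC liver 5 included.

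The genes nearest to Afp, Gpc3 and Sox4 in their variation within groups were ranked by Pearson's r of log2(RPKM + 1) after each group's mean was subtracted, as a description over libraries that share their source and depth. Sex was not subtracted, and in each group of livers every female had more Afp than every male. The part of sex in these rankings was not tested. Over the 13 libraries of the tumour arm Afp was nearest to Ccdc68 (r = 0.979), Alox5ap (0.969) and Bex4 (0.966). Gpc3 was nearest to Cep78 (0.987), Exo1 (0.983) and Slc25a43 (0.979), and Sox4 to Rtn4rl1 (0.923), Tfcp2 (0.918) and Pbxip1 (0.907). Without MYC tumour 1 they were 0.608 to 0.824 for Afp, 0.923 to 0.948 for Gpc3 and 0.750 to 0.850 for Sox4. Over the 20 short-term livers Afp was nearest to Eci3 (0.882), Acnat2 (0.867) and Fam84b (0.861), the first 2 being enzymes of fatty acid metabolism. Gpc3 was nearest to Gpm6a (0.891), H2afy2 (0.882) and Ptk2 (0.874), and Sox4 to Dusp7 (0.852), Bicc1 (0.846) and Pcdh18 (0.839). Without MYC liver 5 the values were 0.866 to 0.888 for Afp, 0.621 to 0.690 for Gpc3 and 0.704 to 0.782 for Sox4.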

How the data were processed

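Total RNA of 33 mouse livers and nodules was sequenced from stranded libraries, per the labels' protocols. Per the submitters' processing notes, the tools named are TopHat2 2.0.8, SAMtools, featureCounts 1.4.5-p1 and DESeq2, with build mm9. The annotation, the strand setting of the counting and any removal of duplicate reads are not given in the sources used here. The authors deposited RPKM per library, and for their own comparisons log2 fold changes and adjusted p-values, which are quoted only where the authors' deposited table is named. Whole reads behind the RPKM were recovered for 100% of the 20485 genes above 0 (within 1e-06), and in simulated data for 96.98% of 14680 genes. The deposited RPKM rest on totals of which nearly all reads lay in genes in the short-term arm and far fewer in the tumour arm, so the arms were fitted apart. As no column lay outside the series, 0 were set aside.

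The tests used limma 3.58.1 in R 4.3.3 on log2(RPKM + 1) (eBayes with trend), with Benjamini-Hochberg adjustment over all genes tested, on 20 and 13 libraries. Members below the filter were tested by exact permutation (scipy 1.17.1). Replicates were numbered by accession order, which links no samples across groups. The members, the gene lists and the rules were chosen with earlier results of these data known. From each list at most 3 called genes per comparison with the largest change and a mean of at least 1 RPKM could be named. The tests were tried on simulated data with changed genes. Alternatives were a pseudocount of 0.1, no filter, rescaling by the median ratio, a fit of the compared groups alone, a sex covariate, voom on the recovered reads, the keratin sets, the S14 and S15 sets of 4-OHT livers and each library left out. Paralogs and pseudogenes of Hmga1 and Hmga2 may share reads with them.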

Additional observations from a re-analysis of the deposited data

Results flagged for a closer look

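In groups of 4 to 10 libraries, a single library that lay far outside the rest was looked for (Dixon's test at 95%, which chance meets in about 1 of 20 groups). Of 45 combinations of gene and group 9 met it. Of these 6 were MYC liver 5, the library with neural genes: Gpc3 at 5.56, Igf2bp1 at 3.46, Igf2bp2 at 11.6, Lin28b at 0.873, Hmga2 at 6.95 and Sox4 at 13.1 RPKM. The other 3 were Igf2bp3 at 4.75 RPKM in wild-type liver 2, Igf2bp3 at 3.73 RPKM in Ex3 liver 4 and Lin28b at 0.225 RPKM in wild-type liver 1. The groups of 3 tumours are too small for this test, so MYC tumour 1 and MYC+Ex3 tumour 3 were not examined by it.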

How the results depend on the processing

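The number of members called was the same or within 1.5 times under the other alternatives run, with these exceptions. In MYC+Ex3 against wild-type livers it was 2, and 1 with no filter, within the keratin-free and within the keratin-bearing livers, and 1 to 2 with a library left out. In MYC+Ex3 against Ex3 livers it was 1, and 2 within the keratin-bearing livers. In MYC tumours against 4-OHT livers it was 6, and 3 with the compared groups alone, where 3 members met the filter. Between MYC+Ex3 and MYC tumours it was 1, then 0 with the compared groups alone and 0 to 2 with a library left out. In MYC livers without MYC liver 5 and with the keratin set as a covariate, an alternative chosen after seeing the data, it stayed at 1. The cause of these changes was not tested, other than the smaller filter set. Directions were followed for 22 pairs of a tested member and a comparison, and for members below the filter in tumours against 4-OHT livers. Among these they turned under 4 alternatives, all for Hmga2. Differences given above for other pairs are outside that count, and some of those small differences also turned sign, as counted below. The difference between MYC+Ex3 and Ex3 livers was -0.11 within the keratin-free livers. The difference in its mean RPKM from the 4-OHT livers was 0.00874 without MYC tumour 1 (range -0.0488 to 0.00874 with a library left out), and 0.00524 and 0.0185 without MYC+Ex3 tumour 2 and 3 (range -0.0808 to 0.0185), alternatives also chosen after seeing the data. The exact tests of Igf2bp1 and Igf2bp2 in MYC+Ex3 tumours rose to p = 0.0556 with any of these tumours left out, the smallest that 2 against 7 libraries reach two-sided here. Of 53 pairs of a tested member and a comparison, 31 had no call under any setting, and 14 of these turned sign under at least 1 alternative. With 3 tumours per genotype and 5 livers per group, and few reads for Lin28b, Igf2bp1, Gpc3 and Hmga2 in livers, small changes were not detectable.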
